A study of Mus musculus with 6 samples.

Results

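The regions described here are the peaks with more signal for ΔDL than for KLF3 and DBD signal under a set limit. They were chosen by 3 values of the deposited table of all peaks, namely a ΔDL height of at least 7.5, a ΔDL height at least 1 above that of KLF3, and a DBD height under 7. A height is the log2 of the authors' tag number in 400 bp per 100 M tags. Of 22188 peaks, 1233 met the rule (5.56%). Klf3-/- murine embryonic fibroblasts (MEFs) of the C57BL/6 strain carried a retroviral transgene for KLF3 with a V5 tag, for ΔDL-V5 or for DBD-V5, and had no endogenous KLF3. Each line was a single stable clone under puromycin selection, so that a construct and its clone cannot be told apart. The V5 tag of each of the 3 constructs was immunoprecipitated with bound chromatin (ChIP) and the DNA sequenced, in 2 replicates with their inputs.

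KLF3 is a zinc finger transcription factor of the Krüppel-like family, which binds CACCC boxes and GC-rich elements and acts mainly as a repressor. It recruits the corepressor CtBP through a short PXDLS-type motif in its N-terminal part. ΔDL carries a mutation in this motif, whereas DBD lacks the N-terminal part and keeps the zinc fingers that contact DNA. At a peak that meets the rule, a protein with the N-terminal part but without the CtBP contact thus gave more normalized tags than KLF3.

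Whether the label of gained in ΔDL but not in DBD describes these regions turned on the scaling. In the deposited heights, DBD was above KLF3 at 907 of 1233 members (73.6%), beside 40.7% of all peaks, and the median difference of the members was 0.30. After the heights of all constructs were brought to 1 median at the 2334 peaks that every construct shared, this value became −0.12 and 417 members had more DBD than KLF3. Only 164 members had a DBD height under 6, and 887 (71.9%) had one from 6.5 to under 7. The members are called by their rule here, and those with a DBD height under 6 are described beside the other 1069. This split at 6 was made after the values were seen.

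Sequences of 200 bp around the centre are shown first, on the plus strand of mm9. They come from members with the largest differences, the highest ΔDL heights or the highest heights in promoters, and do not stand for the other members. Capitals mark a core of the KLF consensus (ACACCC or ACGCCC or CCACCC or CCGCCC, or its reverse complement), the AP-1 sequence (TGACTCA or TGAGTCA) or the RUNX sequence (TGTGGTT or its reverse complement). The first 3 had the largest difference between ΔDL and KLF3 among members called in both ΔDL replicates. The first, nearest to Ctsm at chr13:61636500-61636699, and the second, nearest to 1700101O22Rik at chr12:7643543-7643742, each held a single ACACCC core. The third, nearest to Epgn at chr5:91466852-91467051, was also the highest ΔDL peak of the set and held a KLF core and a RUNX sequence on the reverse strand.
Ctsm: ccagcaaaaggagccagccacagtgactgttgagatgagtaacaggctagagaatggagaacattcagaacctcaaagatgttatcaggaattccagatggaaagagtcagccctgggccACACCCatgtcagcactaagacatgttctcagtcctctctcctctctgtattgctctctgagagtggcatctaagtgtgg
1700101O22Rik: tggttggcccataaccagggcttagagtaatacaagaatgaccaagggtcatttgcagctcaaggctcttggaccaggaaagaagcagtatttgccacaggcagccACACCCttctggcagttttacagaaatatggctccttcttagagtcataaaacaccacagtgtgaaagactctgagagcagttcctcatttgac
Epgn: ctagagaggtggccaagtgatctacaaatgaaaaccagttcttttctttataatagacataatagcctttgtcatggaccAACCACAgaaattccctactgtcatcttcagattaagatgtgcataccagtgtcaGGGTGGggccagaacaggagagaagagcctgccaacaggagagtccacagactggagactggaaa

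The next 2 came after Epgn in ΔDL height. The peak nearest to 1700023F02Rik, at chr10:65816869-65817068, held an AP-1 and a RUNX sequence and no KLF core, and the peak nearest to Tmco5, at chr2:116553341-116553540, held 1 KLF core. The last 3 were the highest promoter members whose printed window is free of annotated exons, at 4933421E11Rik (chr3:106524389-106524588), Ostc (chr3:130412401-130412600) and Efemp1 (chr11:28752440-28752639), and they held 1, 0 and 3 KLF matches.
1700023F02Rik: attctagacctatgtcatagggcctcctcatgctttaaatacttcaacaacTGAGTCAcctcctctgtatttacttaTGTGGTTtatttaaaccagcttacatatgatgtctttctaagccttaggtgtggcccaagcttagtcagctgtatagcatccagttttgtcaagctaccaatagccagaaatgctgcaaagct
Tmco5: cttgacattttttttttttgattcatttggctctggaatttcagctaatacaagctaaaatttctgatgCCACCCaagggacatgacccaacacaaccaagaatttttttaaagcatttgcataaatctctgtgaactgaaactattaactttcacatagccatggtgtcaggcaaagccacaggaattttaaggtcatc
4933421E11Rik: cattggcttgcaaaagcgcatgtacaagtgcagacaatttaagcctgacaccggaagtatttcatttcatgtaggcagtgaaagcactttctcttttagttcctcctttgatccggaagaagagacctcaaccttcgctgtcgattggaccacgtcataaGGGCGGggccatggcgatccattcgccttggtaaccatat
Ostc: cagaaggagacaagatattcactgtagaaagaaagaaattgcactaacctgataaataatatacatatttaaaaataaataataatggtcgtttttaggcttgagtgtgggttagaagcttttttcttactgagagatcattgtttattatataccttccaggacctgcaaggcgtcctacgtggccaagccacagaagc
Efemp1: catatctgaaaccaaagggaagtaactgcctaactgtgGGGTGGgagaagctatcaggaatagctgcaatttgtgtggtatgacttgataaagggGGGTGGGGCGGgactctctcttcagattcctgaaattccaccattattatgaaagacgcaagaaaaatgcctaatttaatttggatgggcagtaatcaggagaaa

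The heights chose the members and are given as a description. The median height of the members was 6.44 for KLF3, 7.72 for ΔDL and 6.73 for DBD. Over all peaks the medians were 7.35, 7.52 and 6.19, so the members had a higher median for DBD and a lower one for KLF3. The medians of the members corresponded to 20, 24 and 16 tags in the combined replicates. The rule's ΔDL threshold alone needs about 21 tags. The ΔDL height exceeded that of KLF3 by a median of 1.30 and by at most 3.22. Over all peaks, 28.9% had a ΔDL height at least 1 above KLF3, 51.4% had a ΔDL height of at least 7.5 and 80.5% had a DBD height under 7. Heights had no replicate error, since the authors counted both replicates together. They also held a random part of up to 1 tag. The same interval in the table and in a merged list differed by up to 0.12 on the log2 scale for ΔDL. With this part set to its mean, 1230 peaks met the rule, 1148 of them members.

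**Figure D1:**
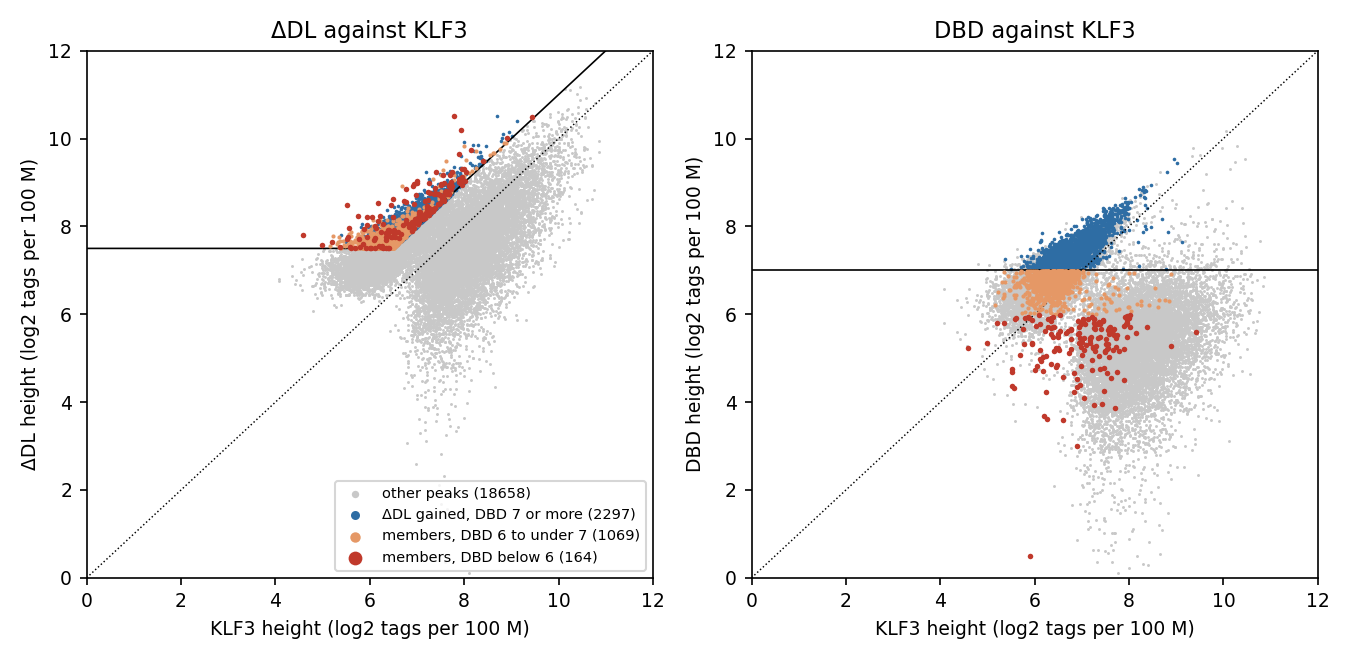
Heights of ΔDL (left) and DBD (right) against KLF3 for all 22188 peaks, in log2 tags per 100 M, with no replicate error; red points are the 164 members with a DBD height under 6, orange points the other 1069, blue points the 2297 gained peaks with a DBD height of 7 or more, and grey points the rest. Solid lines show the rule, dotted lines show equal heights, and most orange points lie above the dotted line for DBD too, and most red points lie below it.

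Many members lay close to a threshold. A ΔDL height of 7.5 to under 7.6 was found for 316 members (25.6%), a difference of 1 to under 1.1 for 203 (16.5%) and a DBD height of 6.9 to under 7 for 287 (23.3%). The peak nearest to Lpin1 was just inside on 2 counts, with heights of 6.5 for KLF3, 7.5 for ΔDL and 6.71 for DBD. Hrh4 and Nlgn1 were the next inside in ΔDL height, both at 7.5. Edem1, Efna5 and 7420701I03Rik were just outside with ΔDL heights of 7.49, although their differences of 1.77, 1.77 and 1.72 were larger than that of Lpin1. The peaks nearest to Cntnap5b and Tsga8 were just inside in difference at 1.0. Those nearest to Nln, 4930412B13Rik and Mab21l1 were just outside at 0.99, 2 of them with DBD heights of 4.98 and 5.17. Sv2b and Cse1l were just inside the DBD limit at 6.99, and Cntnap5b, Rarb and Pcdh15 just outside at 7.0.

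The scaling decided how much of the gain remained. At the 2334 peaks shared by the 3 constructs, ΔDL heights were above KLF3 heights, and a shift of −1.06 made the medians equal. All these peaks were called for DBD, and members and other gained peaks can be among them. The shift is larger than the rule's difference of 1, so a large fall in the number of peaks follows from this choice of peaks. This shift moved the median difference over all peaks from 0.42 to −0.64, and that of the members from 1.30 to 0.24. After the shift, 1116 members still had more ΔDL than KLF3 and 252 had at least 0.5 more, but only 5 peaks met the rule. These were peaks nearest to Epgn, Npr3 and H2-T24 and both members nearest to Tmco5, and all 5 were members. Which scaling is right was not tested.

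Replicate support differed between the constructs. Both ΔDL replicate lists held a peak at 1167 members (94.6%), beside 55.9% of all peaks. Since the rule asks for a high ΔDL height, nothing is read from this. The other 66 were called in a single ΔDL replicate. Of these, 41 were called in ΔDL replicate 2 and in both KLF3 replicates, a number not taken over all peaks. KLF3 replicate 1 held 728 members (59.0%), and KLF3 replicate 2, the list with the most tags, held 318 (25.8%). For all peaks these shares were 80.1% and 66.7%. Neither KLF3 replicate held a peak at 425 members (34.5%), beside 17.2% of all peaks, and the rule limits KLF3 heights too. A total of 416 members (33.7%) were called in both ΔDL replicates and in neither KLF3 replicate, beside 16.1% of all peaks. Both KLF3 replicates held 238 members, beside 14216 of all 22188 peaks. All 4 lists held 196 members, a number not taken over all peaks. A DBD replicate held a peak at 793 members (64.3%), beside 36.1% of all peaks. No member with a DBD height under 6 was called in a DBD replicate. Of the other 1069, 351 were called in both DBD replicates (32.8%), beside 22.4% of all peaks. The rule used all 3 heights, so these counts are a description.

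The calls were made by the authors on each replicate alone, with at least 5-fold more tags than in input and in the surrounding sequence. The tag numbers behind them were small. Among members called, the median was 7 tags in ΔDL replicate 1, 14 in ΔDL replicate 2, 8 in KLF3 replicate 1 and 15 in KLF3 replicate 2. The median was 9 in each DBD replicate.

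By the worth of 1 tag in the peak scores, ΔDL replicate 1 had 1.77 M tags beside 10.2 M in replicate 2, or 14.7% of the ΔDL tags. These totals are inferred. The mapped reads listed by the study are more numerous for every library, and they are less unevenly split between the ΔDL replicates. Why they differ is not given in the sources used here. At the 1167 members called in both ΔDL replicates, replicate 1 supplied 32.7% of the tags (95% Wilson interval 32.1 to 33.2%, over tags), and at all 12407 peaks called in both it supplied 32.5% (interval 32.3 to 32.6%). The share at members was near that at all peaks, which include the members. It was above the 22.7% at peaks within the same ΔDL and DBD limits without a gain. The share was 34.0% at members with a DBD height of 6 or more and 24.3% at those with one under 6. At the 846 peaks of the whole table with a ΔDL height of 9 or more it was 20.1%, and at gained peaks with a DBD height of 7 or more 36.4%. All these peaks had passed the call in replicate 1, and the part of that selection in the share was not tested. KLF3 replicate 1 also gave more of the tags at members than its 23.2% of the library, namely 35.7%, beside 31.2% at all peaks called in both KLF3 replicates. For DBD, replicate 1 gave 51.3% of the tags at members, 51.8% at all peaks and 48.3% of the library.

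When the tags of ΔDL replicate 1 were taken out at the peaks called there, 562 members (45.6%) still had a ΔDL height of at least 7.5, and 453 (36.7%) kept that and a difference of at least 1 from KLF3. The median difference fell from 1.30 to 1.05. Both thresholds were kept by 132 of 164 members with a DBD height under 6 (80.5%, interval 73.8 to 85.8%), and by 321 of the other 1069 (30.0%, interval 27.4 to 32.8%). This contrast is partly built in, since members without a call in ΔDL replicate 1 lost no tags. The other 1069 also started nearer to the threshold of 7.5, with a median ΔDL height of 7.7. It was 8.32 for members with a DBD height under 6, and the part of this difference in the contrast was not tested. Among members called in replicate 1, an alternative chosen after seeing the data, 105 of 137 (76.6%) and 290 of 1038 (27.9%) kept both. All but 3 members still had more ΔDL than KLF3. Since the replicate tags were counted in narrower peaks than the heights, these heights are upper values, and they rest on the inferred totals. Among members called in 2 lists, ΔDL scores were compared with KLF3 scores. ΔDL replicate 2 was higher than KLF3 replicate 2 at 317 of 317 members, with a median log2 ratio of 1.03. It was higher than KLF3 replicate 1 at only 374 of 723, with a median of 0.02. ΔDL replicate 1 was higher than KLF3 replicate 1 at 675 of 676. The rule chose members for a higher ΔDL height from the same tags, so most of this direction is fixed by the choice. A score also exists only where a peak was called.

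**Figure D2:**
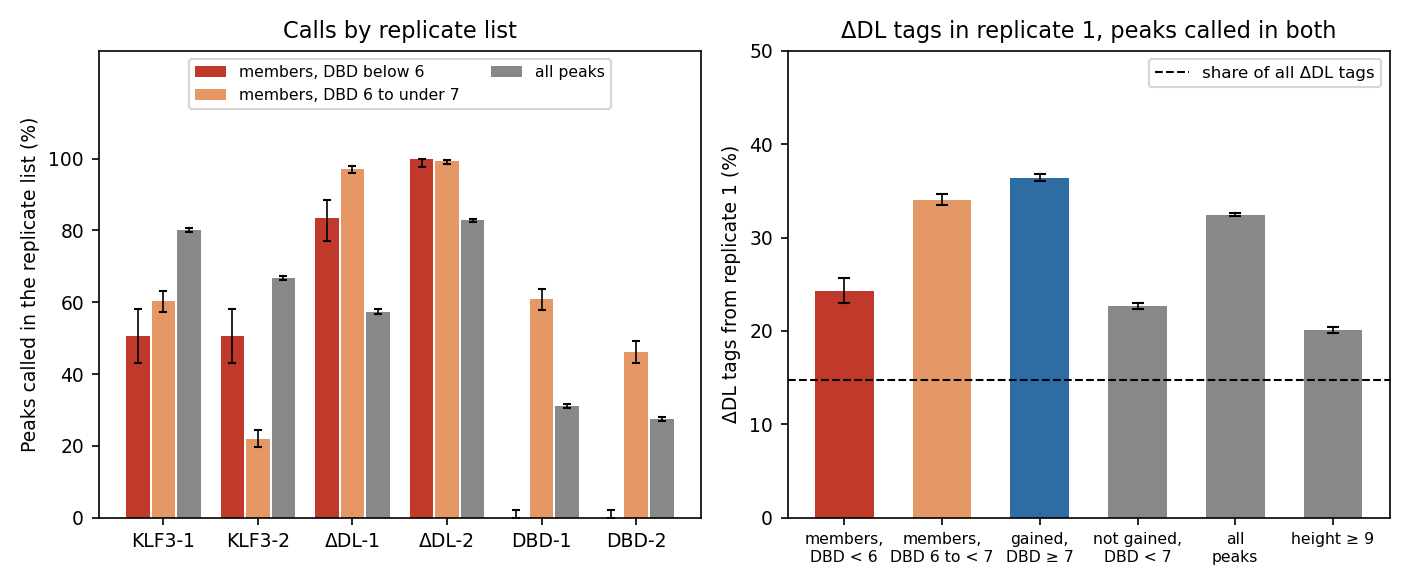
Share of peaks called in each replicate list (left; error bars, 95% Wilson intervals over peaks) and share of ΔDL tags that came from replicate 1 at peaks called in both ΔDL replicates (right; intervals over tags; dashed line, the 14.7% of all ΔDL tags, as inferred from the scores, that replicate 1 supplied). Members with a DBD height of 6 to under 7 were called least in KLF3 replicate 2 among the 3 groups. They drew 34.0% of their ΔDL tags from replicate 1, beside 32.5% at all peaks and 22.7% at peaks within the same limits without a gain.

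The members lay mostly far from promoters. By the authors' annotation, 716 were intergenic (58.1%, interval 55.3 to 60.8%), 463 lay in introns (37.6%, 34.9 to 40.3%) and 16 in promoters (1.30%, 0.80 to 2.10%). For all peaks the shares were 43.7%, 32.8% and 20.1%. The remaining 38 members included 14 in 3′ UTRs, 12 at transcript ends, 7 in exons, 3 in non-coding transcripts and 2 in 5′ UTRs. The median distance to the nearest TSS was 63241 bp, and 491 members (39.8%) lay more than 100 kb from one, beside 25.4% of all peaks. Gained peaks with a DBD height of 7 or more were similar, at 59.0% intergenic, 37.1% intronic and 0.44% in promoters. Peaks within the same ΔDL and DBD limits but without a gain were not, with 36.1% in promoters. Neither promoter share lies within the interval of the members. Within the members, promoters held 9 of 164 with a DBD height under 6 (5.49%, interval 2.91 to 10.1%) and 7 of the other 1069 (0.65%, interval 0.32 to 1.35%).

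The sequence at the members was poor in G+C. The median G+C content of the 400 bp was 39.0% (95% interval of the median 38.5 to 39.5%), beside 44.8% over all peaks, 36.5% at gained peaks with a DBD height of 7 or more and 52.8% at peaks within the same limits without a gain. It was 44.3% at members with a DBD height under 6 and 38.3% at the others. A total of 187 members (15.2%) held no CpG in 400 bp, beside 8.81% of all peaks. The median PhastCons conservation, from 0 to 1, was 0.04 for members and 0.08 for all peaks. It was 0.07 and 0.03 for members with a DBD height under 6 and of 6 or more.

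The KLF consensus, a 10-base pattern around a core of CACCC or CGCCC, was found within 50 bp of the centre on either strand at 184 members (14.9%, interval 13 to 17%). In flanks of the same length, from 400 to 500 bp away, the share was 8.64%. Over all peaks it was 39.5% with 16.3% in flanks, and at peaks within the same limits without a gain 66.1%. Gained peaks with a DBD height of 7 or more were below their flanks, at 5.35% and 8.42%. The members fell between, and the consensus followed the DBD height. It was present at 24 of 38 members with a DBD height under 5 (63.2%, interval 47.3 to 76.6%), at 50.9% from 5 to 5.5, at 45.2% from 5.5 to 6, at 22.0% from 6 to 6.5, at 9.25% from 6.5 to 6.75 and at 5.55% of the 595 members from 6.75 to 7 (interval 3.98 to 7.69%). The last interval lies below the 8.64% in the flanks of all members. G+C content fell along the same bins, from a median of 45.6% to 38.3%. The other heights differed too. Bins with a DBD height under 6 had median ΔDL heights of 8.1 to 8.36 and KLF3 heights of 6.84 to 7.17. Bins of 6 or more had 7.64 to 7.73 and 6.37 to 6.45. The parts of G+C content and of these heights in the difference were not tested.

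**Figure D3:**
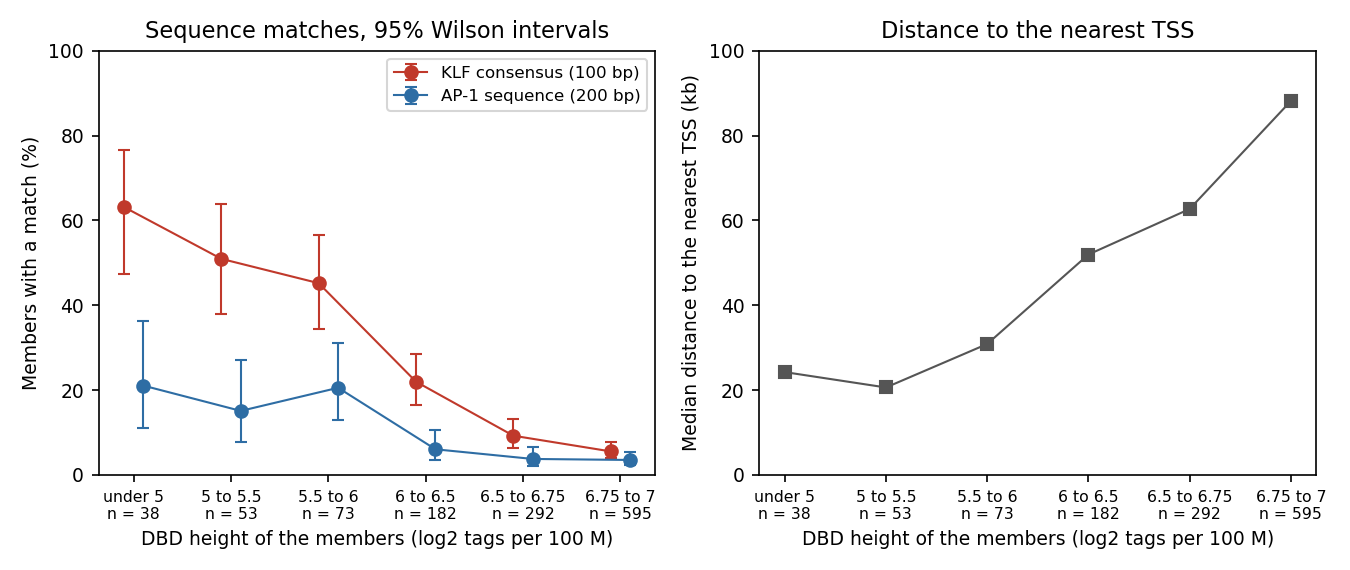
Share of members with the KLF consensus or the AP-1 sequence (left; error bars, 95% Wilson intervals) and median distance to the nearest TSS in kb (right; no error shown), by DBD height of the members. The KLF share fell from 63.2% under 5 to 5.55% from 6.75 to 7, and the distance rose above 80 kb in the last bin.

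AP-1 factors, such as Fos and Jun proteins, bind TGACTCA or TGAGTCA. Within 100 bp of the centre this sequence was found at 74 members (6.00%, interval 4.81 to 7.47%), with 3.45% in flanks from 400 to 600 bp. For all peaks the share was 12.3%, and at peaks within the same ΔDL and DBD limits without a gain 18.6%. Of the 164 members with a DBD height under 6, 31 held it (18.9%, interval 13.6 to 25.6%), beside 4.57% of their flanks, and of the others 4.02% (interval 3.0 to 5.37%). The RUNX sequence showed the same split, at 17.7% (interval 12.6 to 24.2%) and 5.05% (3.89 to 6.53%), with 4.27% and 4.30% in flanks. It was found in 6.15% of all peaks and in 8.23% of the peaks within the same limits without a gain. The TEAD sequence (AGGAATG or GGGAATG) was found at 12.2% and 5.89%, with 9.45% and 7.30% in flanks. Its share was 8.54% at all peaks and 10.7% at peaks within the same limits without a gain. Of the 164, 18 held both the KLF consensus and the AP-1 sequence, 66 the KLF consensus alone, 13 the AP-1 sequence alone and 67 neither.

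The consensus also followed the ΔDL height. Low DBD heights and high ΔDL heights fell partly on the same members, and the trends were not separated. It was present at 7.79% of the 655 members from 7.5 to 7.75, 8.19% from 7.75 to 8, 34.1% from 8 to 8.5, 47.5% from 8.5 to 9 and 71.1% of the 45 members of 9 or more (interval 56.6 to 82.3%). AP-1 and TEAD sequences were found at 31.1% and 28.9% of those 45. All 45 were called in a KLF3 replicate, beside 55.4% of the members from 7.5 to 7.75. Of all peaks, 17.2% were called in neither KLF3 replicate. A DBD replicate held 3 of the 45, beside 36.1% of all peaks.

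**Figure D4:**
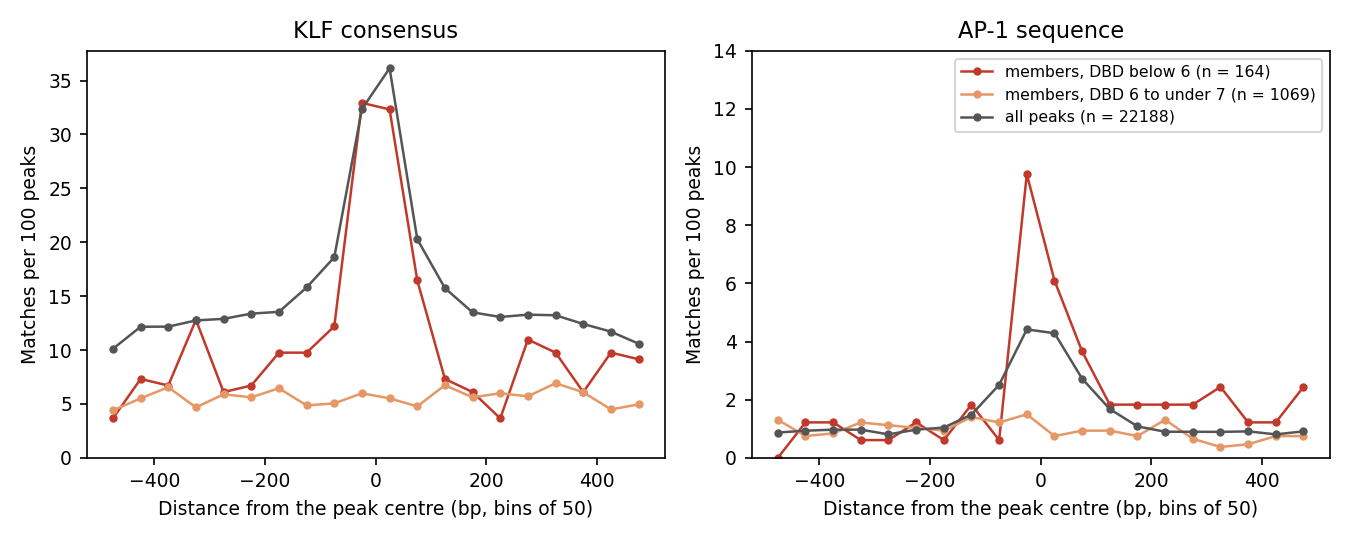
Matches per 100 peaks of the KLF consensus (left) and the AP-1 sequence (right) by distance from the peak centre in bp, in bins of 50 bp, with no error shown. Members with a DBD height under 6 had 32.9 and 32.3 KLF matches per 100 in the 2 central bins, and members with a DBD height of 6 to under 7 had 5.99 and 5.52, which is near the level in the rest of the window.

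The highest ΔDL peak of the set lay 10408 bp downstream of the TSS of Epgn, which encodes epigen, a ligand of the EGF receptor. Its heights were 7.79 for KLF3, 10.51 for ΔDL and 5.17 for DBD, or 51, 172 and 5 tags. Both KLF3 replicates held it, with 10 and 24 tags, as did both ΔDL replicates, with 21 and 111. The normalized tags were 6.59 times those of KLF3 (95% counting interval 4.84 to 9.27), and without ΔDL replicate 1 the ΔDL height was 10.55. Both neighbouring Epgn peaks were members too, with heights of 8.15, 9.74 and 5.58 at 11003 bp and of 7.72, 8.85 and 5.25 at 9282 bp. The peak at 9282 bp had no call in ΔDL replicate 1, and the KLF3 replicates held it with 9 and 17 tags. No other peak was assigned to Epgn. Within 300 kb of the highest peak the table held 12 peaks, 5 of them members, and this stretch was looked at after its values were seen. The other 2 members lay near chemokine genes, Cxcl5 (7.96, 9.04 and 5.80) and Cxcl15 (6.13, 7.96 and 4.93). The promoter peak of Cxcl1, another chemokine gene, and the intron peak of Ereg, a further EGF receptor ligand gene, had less ΔDL than KLF3, with differences of −0.64 and −0.58.

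Apart from Epgn, the 15 largest differences among members called in both ΔDL replicates belonged to peaks with KLF3 heights of 6.17 or less. The peak nearest to Ctsm, a cathepsin gene, rose from a KLF3 height of 4.59 to a ΔDL height of 7.81, with 5 and 26 tags and a DBD height of 5.23. Its ratio of normalized tags was 9.32, with a counting interval of 3.87 to 34.2. The ΔDL replicates held it with 5 and 17 tags, and no KLF3 or DBD replicate held it. The peak nearest to 1700101O22Rik had heights of 5.51, 8.48 and 4.76. The peaks nearest to Grin2b, a subunit of the NMDA glutamate receptor, and Cdh10, a cadherin, had ΔDL heights of 7.57 and 7.79. Of the 15, all but Epgn and Fam198b were called in no KLF3 replicate, and Fam198b had 8 tags in KLF3 replicate 1. Over all peaks, 17.2% were called in neither KLF3 replicate. The 15 were ranked by their difference from KLF3, so nothing is read from the missing KLF3 calls. All of the 15 but the intron peaks of Slc4a4 and 4930513D17Rik were intergenic. Without ΔDL replicate 1, Dlgap1, Fam198b, Slc4a4, Map3k5, Grin2b and Pof1b fell under a ΔDL height of 7.5, to between 7.07 and 7.27.

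The 10 highest ΔDL members also had high KLF3 heights. The one nearest to 1700023F02Rik had 9.43 for KLF3, 10.49 for ΔDL and 5.59 for DBD, and the KLF3 replicates held it with 55 and 73 tags. That nearest to Tmco5 had 7.94, 10.19 and 5.77. Those nearest to Car1, a carbonic anhydrase, and Gadd45a, a stress response gene, had ΔDL heights of 10.01 and 9.89 with differences of 1.11 and 1.01. Each of the 10 was called in both KLF3 and both ΔDL replicates. Of all 22188 peaks, 14216 were called in both KLF3 replicates and 12407 in both ΔDL replicates. Each of the 10 kept a ΔDL height of at least 9.71 without ΔDL replicate 1.

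**Figure D5:**
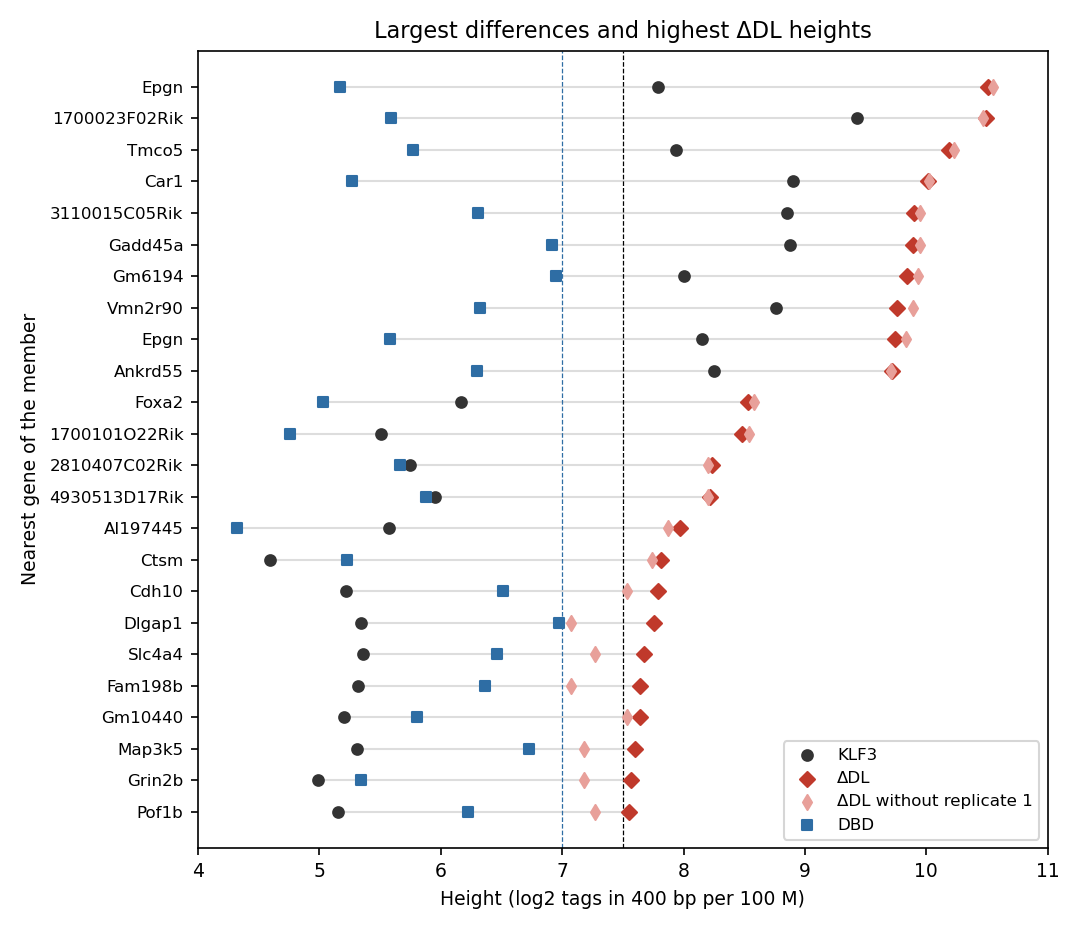
Heights in log2 tags in 400 bp per 100 M of KLF3, ΔDL, ΔDL without the tags of replicate 1, and DBD for the members with the largest differences and the highest ΔDL heights, named by their nearest gene, with no replicate error and dashed lines at the ΔDL threshold of 7.5 and the DBD limit of 7. The 10 upper members have KLF3 heights of 7.79 or more, and the others have KLF3 heights of 6.17 or less.

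A further group of members was those that kept both thresholds without ΔDL replicate 1, were called in both ΔDL replicates and were called in no KLF3 or DBD replicate. There were 96, of which 42 had a DBD height under 6. The share of all peaks with the same calls is not given here. Since the rule used the values that decide these calls, the group is a description. Its members were named after their values were seen. Of the 5 peaks that met the rule after scaling, only H2-T24 was among them. The KLF consensus was found at 30 of the 96 (31.3%, interval 22.9 to 41.1%), beside 14.9% of members and 39.5% of all peaks. By region, 54 were intergenic, 39 intronic and 1 in a promoter, and the shares for all peaks are given above. The highest was in intron 2 of Hrh1, a histamine receptor gene, with heights of 6.93, 8.97 and 5.71 and with 7 and 36 tags in the ΔDL replicates. Lrrc8d, which encodes a subunit of volume-regulated anion channels, had an intron peak of 7.36, 8.74 and 5.82. The peak 119156 bp from Foxa2, a forkhead factor gene, had 6.17, 8.53 and 5.03, and that nearest to Marcks, a substrate of protein kinase C, had 6.94, 8.51 and 5.57.

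The 16 promoter members were near 15 genes. Tmem74, which encodes a transmembrane protein linked to autophagy, had the largest difference, with heights of 7.01, 9.03 and 5.07, and had 8 tags in KLF3 replicate 1, no call in KLF3 replicate 2, and 7 and 25 tags in the ΔDL replicates. Klf8, a gene of the same family as Klf3, had 7.34, 9.07 and 6.14. Ostc, a component of the oligosaccharyltransferase, had 7.95, 9.12 and 5.96, and Efemp1, an extracellular matrix gene, had 7.65, 8.78 and 5.63. The Efemp1 peak had no call in ΔDL replicate 1, and the KLF3 replicates held it with 9 and 21 tags. Kif20a, a mitotic kinesin gene, had a pair of members. Cops3, Grsf1, Satb1 and Ddx26b, named after their values were seen and at ΔDL heights of 7.59 to 7.88, were called in no KLF3 replicate, beside 17.2% of all peaks. Of the 16, 6 held the KLF consensus within 50 bp of the centre. The core printed above for 4933421E11Rik lies outside that window. At 12 of the 16 the ΔDL height was at least 8.19. None was called in a DBD replicate except Satb1 with 9 tags in replicate 2, beside 36.1% of all peaks. Since the rule limits DBD heights, nothing is read from this.

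The members were assigned to 1083 nearest genes, which is 10.1% of the 10750 genes nearest to any peak. Of these, 958 had a single member, 101 had 2 and 24 had 3 or more. At 278 genes, every peak in the table was a member. Flrt2, which encodes an adhesion protein of the FLRT family, had 4 members of 19 peaks, at −1623489 to −315533 bp from its TSS. Ppargc1a, a coactivator gene, had 3 of 4 peaks as members, and the highest had heights of 7.52, 8.97 and 5.32. Mbnl1, a splicing factor gene, had 3 of 9, Papss1, a sulfate activation gene, 3 of 8, and Lrp1b, a lipoprotein receptor gene, 3 of 16. The members of Lrp1b were intronic with ΔDL heights of 7.69 to 7.97. Rfk had 3 of 5, all in introns of Pcsk5, 9130015A21Rik 3 of 5, and Cpxcr1 and Megf9 3 of 8 and 3 of 7. Of the 24 genes, 8 had a member with a DBD height under 6. Of 463 intronic members, 458 had a host transcript with a symbol, and the nearest TSS was that of the host gene at 305. Pcsk5, a proprotein convertase gene, was host to 4 members, 3 of them those of Rfk.

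Gene lists are described by counts beside the 10.1% of all genes and the 5.56% of all peaks, and no list was tested. Genes with many peaks have more chances of a member, so both counts are given. Of 14 genes of EGF ligands and receptors with a peak, 2 had a member, and 4 of 32 peaks were members, with a median difference over all peaks of the list of 0.85. These were 3 peaks of Epgn and an intron peak of Erbb4, an EGF family receptor gene, with 6.07, 7.69 and 6.13, named after its values were seen. In the TGF-beta list 7 of 37 genes had one, and 9 of 132 peaks were members (6.82%). The peak nearest to Tgfb2, which encodes a ligand, had 7.25, 8.34 and 3.94. It had no call in ΔDL replicate 1, and the KLF3 replicates held it with 7 and 16 tags. Bmp4, a bone morphogenetic protein gene, had 6.18, 8.12 and 4.72, and Tgfbr3, a co-receptor gene, had 6.71, 7.77 and 6.91. The median difference over all peaks of this list was −0.06, beside 0.42 over all peaks. The WNT list had 6 of 34 genes and 6 of 77 peaks (median difference 0.14). The highest were nearest to Sfrp2 and Dkk2, genes of secreted antagonists, and Fzd1, a receptor gene, with ΔDL heights of 7.92, 7.84 and 7.7. The FGF list had 3 of 17 genes and 4 of 40 peaks, and the highest were nearest to the ligand genes Fgf9 and Fgf16, with ΔDL heights of 7.91 and 7.61. The Fgf16 peak had no call in ΔDL replicate 1 and was called in both KLF3 replicates.

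Of 11 genes of AP-1 factors with a peak, 3 had a member, and 4 of their 52 peaks were members (7.69%), with a median difference of −0.40 over the 52. The intron peak of Jdp2, a repressor of AP-1, had 6.72, 8.59 and 5.13, the peak downstream of Fos had 6.47, 7.82 and 6.22, and the higher member of Maf had a ΔDL height of 7.55. The KLF and Sp list had 5 of 19 genes and 5 of 60 peaks, with Klf3 itself (7.52, 8.95 and 5.44, 61349 bp from its TSS) after Klf8, and Klf6 at 6.92, 8.02 and 6.99. In the list of mesenchymal and fibroblast transcription factors, 4 of 18 genes had one and 5 of 46 peaks were members, and the highest was nearest to Twist2, with 7.75, 8.91 and 4.68. That Twist2 peak had no call in ΔDL replicate 1, and the KLF3 replicates held it with 13 and 22 tags. In the list of collagens, laminins and integrins, 6 of 60 genes had one and 6 of 144 peaks were members, and intron peaks of Col5a2 (7.26, 8.99 and 5.80) and Col12a1 (7.6, 8.78 and 5.72) were the highest. Neither of these intron peaks had a call in ΔDL replicate 1, and each was called in both KLF3 replicates. Matrix proteases had 3 of 40 genes and 3 of 80 peaks, and cytokines and chemokines 2 of 26 genes and 2 of 44 peaks. The Hippo pathway had 1 of 21 genes (Amotl2) and 1 of 50 peaks, with a median difference of −0.27. CtBP and other corepressors had 1 of 20 genes (Pnn) and 1 of 37 peaks, and RUNX factors 0 of 7 genes and 0 of 29 peaks. Solute carriers had 19 of 181 genes and 20 of 358 peaks, and Zfp genes 7 of 154 genes and 7 of 265 peaks. Of 8 genes of fibroblast identity with a peak, 1 had a member, Pdgfra, a PDGF receptor gene, with 6.13, 7.77 and 6.57.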

How the data were processed

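ChIP–seq of KLF3, ΔDL and DBD was done in duplicate, and each deposited record covers both replicates. The authors mapped their 50 bp reads onto mm9 (Bowtie2), and HOMER was run on every replicate for peaks (false discovery rate 0.001) and their annotation. The heights are log2 values of tags in 400 bp per 100 M tags, which the authors counted over 23.3 M, 11.8 M and 16.0 M combined tags. Replicate lists give a peak score, a signal in tags per 100 M by the authors, and 1 tag's worth was read from their steps. Conservation was deposited as a fraction from 0 to 1, a mean PhastCons score. The input libraries entered only through the authors' calls. At 35 peaks the letters Pdl in the gene symbol had been replaced by the mutant's name, and all symbols were restored from the RefSeq accession.

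Peaks overlapped when they shared at least 1 bp. Sequences were read from mm9, whose G+C content was within 0.5 points of the authors' column at 99.99% of 18373 peaks, and were matched on both strands. Shares have 95% Wilson intervals over peaks or tags, and ratios have exact conditional binomial intervals. They cover counting error only, since peaks are not replicates. No test was made, because the heights have no replicate error and the rule used them. The members and gene lists were chosen with earlier results of these data known. Members were named if they were among the 15 with the largest difference called in both ΔDL replicates, the 10 highest for ΔDL, the 10 highest in promoters, those of the 10 genes with the most members (ties broken by summed ΔDL tags), the 3 highest of a gene list, or the 3 nearest to a threshold, of which 1 is not reported here. Other names were chosen after values were seen. The overlap, match and tag steps were tested on simulated data. The tools were scipy 1.17.1, pandas 2.3.3, numpy 2.4.6 and matplotlib 3.10.9 under Python 3.11.15.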

Additional observations from a re-analysis of the deposited data

How the results depend on the processing

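No paired analysis was possible because no test was made on the combined heights. The number of members was 1233 as reported. It was 5 after scaling to equal medians at shared peaks, 3212 and 236 with ΔDL thresholds of 7 and 8, 2185 and 314 with differences of 0.5 and 1.5, and 346 and 2648 with DBD limits of 6.5 and 7.5. Among alternatives chosen after seeing the data, it was 164 with a DBD limit of 6, 326 where DBD was not above KLF3, and 553 to 1326 without replicate 1 of ΔDL, KLF3 or DBD, with ΔDL replicate 1 giving the lowest value. The number called in both ΔDL replicates was 1167, beside 1175 with the list of replicate 1 alone and 1225 with that of replicate 2 alone. The number called in neither KLF3 replicate was 425, and 505 to 915 when 1 of the lists was left out, the highest without KLF3 replicate 1. An overlap of at least 200 bp gave 0 and 1233 for these numbers, since peaks in the replicate lists are 122 to 142 bp wide.

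Among members with a ΔDL height of at least 8, promoters held 5.08%, intergenic sequence 50.4%, the KLF consensus 44.5% and the AP-1 sequence 15.7%, the median G+C content was 43.0% and 1 gene had 3 or more members. Among members with a DBD height under 6, promoters held 5.49%, the KLF consensus 51.2% and the AP-1 sequence 18.9%, the median G+C content was 44.3% and 1 gene had 3 or more members. Where DBD was not above KLF3, these values were 4.29%, 40.2%, 13.5%, 42.9% and 2 genes, with 52.5% intergenic. Wider windows of 200 and 400 bp gave the KLF consensus at 23.2% and 35.4%. Windows of 100 and 400 bp gave the AP-1 sequence at 3.65% and 10.1%. The median G+C content of 100 bp was 37.0%. Of 51 alternatives, 16 stayed within 1.5 times a count or inside the interval of a share or median. The depth of 1.77 M tags in ΔDL replicate 1 is inferred from the peak scores and is far below its listed mapped reads. A call there rested on as few as 4 tags, which limits what can be said of replicate support.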

Other observations

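Members were spread over all chromosomes. The share of a chromosome's peaks that were members was 9.38% on chromosome 3 (126 of 1343, interval 7.94 to 11.1%), 8.42% on X and 7.76% on 13. It was 2.80% on chromosome 16 (26 of 929, interval 1.92 to 4.07%) and 3.19% on 17. Gained peaks with a DBD height of 7 or more made up 13.4% of the peaks on chromosome 3, 18.7% on X and 9.26% on 16. Another member lay within 2 kb of 7 members and within 100 kb of 142 (11.5%). Another peak of the merged KLF3 list lay within 10 kb of 154 members (12.5%). These distances were not taken over all peaks, so nothing is read from them.

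The peak centre lay in an annotated repeat at 287 members (23.3%), beside 17.2% of all peaks, 25.9% of gained peaks with a DBD height of 7 or more and 9.52% of peaks within the same ΔDL and DBD limits but without a gain. LINE elements held 109 (8.84%, beside 12.3% of gained peaks with a DBD height of 7 or more), LTR elements 65 (5.27%) and SINE elements 63 (5.11%). LINE elements were found at 7 of 164 members with a DBD height under 6 (4.27%) and at 102 of the other 1069 (9.54%). Among the other sequences searched, the CCAAT box was at 28.5% of members and 28.3% of flanks, the GATA sequence at 3.0% and 2.76%, the forkhead sequence at 3.49% and 3.41%, the SOX sequence at 2.35% and 3.24%, the E-box CACGTG at 1.46% and 1.87%, and the ETS sequence CCGGAAG at 13 members (1.05%) and 0.45% of flanks. The CRE sequence was found at 1 member and the C/EBP sequence at 0.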
